A study of Mus musculus with 36 samples.

Results

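The naive pluripotency transcription factors described here are 10 genes chosen by name: Esrrb, Klf2, Klf4, Klf5, Tbx3, Nr0b1, Zfp42, Tfcp2l1, Prdm14 and Dppa3. These genes and the gene lists used below were chosen with earlier results of these data known. All 10 were found by Ensembl identifier among the 49671 genes of the count table, and all 10 were among the 23501 genes with enough reads to be tested. They were measured by RNA-seq in 36 libraries of mouse pluripotent cells from 3 conditional knockout lines, named Bod1L, Setd1a and Mll2 after the gene targeted (Mll2 is the older name of Kmt2b). Each line was sampled as wild-type cells and as knockout cells, whose labels name tamoxifen, in 3 media with 2 biological replicates, which gives 18 groups. The wild-type cells of a line carry no tamoxifen label, so tamoxifen and gene loss cannot be told apart. The 2i medium held LIF with the MEK inhibitor PD0325901 and the GSK3 inhibitor CT99021, and its cells were labelled naive embryonic stem cells. The FCS medium held LIF and foetal calf serum, and its cells were labelled cycling embryonic stem cells. The EpiSC medium held Activin A and FGF2, and its cells were labelled epiblast-like, so medium and cell type changed together there. Each line is a single source of cells, and p-values measure the spread between its replicate cultures.

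Mouse pluripotent cells can be held in a naive state, which resembles the epiblast before implantation, or in a primed state, which resembles the epiblast after it. The naive state is maintained by LIF signalling through STAT3, by Wnt signalling or inhibition of GSK3, which relieves repression by TCF7L1, and by low ERK activity. These inputs converge on a set of transcription factors that act beside the core factors Oct4, Sox2 and Nanog and that are lost or reduced when cells become primed. Esrrb and Tfcp2l1 are targets of the GSK3 and STAT3 inputs respectively, Klf4 is a STAT3 target, Klf2 is sensitive to ERK signalling, and Klf2, Klf4 and Klf5 bind related GC-rich sites. Tbx3 is a T-box factor that can sustain self-renewal. Nr0b1 (Dax1) is an orphan nuclear receptor without a DNA-binding domain of its own, and Zfp42 (Rex1) is a zinc-finger protein long used as a marker of the naive state. Prdm14 represses FGF signalling and DNA methyltransferases, and Dppa3 (Stella) protects DNA from changes in methylation in the oocyte and early embryo. Dppa3 is not a classical sequence-specific transcription factor and is kept in the group because the list names it.

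On GRCm38 (GENCODE M21) Esrrb (ENSMUSG00000021255) lies at chr12:86361117-86521628, Tbx3 (ENSMUSG00000018604) at chr5:119670669-119684724, Nr0b1 (ENSMUSG00000025056) at chrX:86191764-86195947 and Dppa3 (ENSMUSG00000046323) at chr6:122626410-122630272, all on the plus strand. Klf2 (ENSMUSG00000055148) lies at chr8:72319033-72321656 and Klf5 (ENSMUSG00000005148) at chr14:99298691-99315036 on the plus strand, with Klf4 (ENSMUSG00000003032) at chr4:55527143-55532466 on the minus strand. Tfcp2l1 (ENSMUSG00000026380) lies at chr1:118627945-118685168 on the plus strand, Prdm14 (ENSMUSG00000042414) at chr1:13113457-13127163 and Zfp42 (ENSMUSG00000051176) at chr8:43295063-43306980, both on the minus strand. Values are exonic read counts of these genes.

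Promoter sequences are shown because the members moved together between media, and motifs of factors within the group and of STAT3 could be searched for in them. RefSeq (GRCm38.p6) gave 7 windows of 250 bases directly before an annotated start for 6 members: Esrrb (2 starts), Klf2, Klf4, Nr0b1, Zfp42 and Tfcp2l1. Of 6 motifs searched on both strands, GGGNGNGGC (a KLF-type site), TTCNNNGAA (a STAT site) and AAGGTCA (an ESRRB site) were marked, and CTTTGNT (a TCF site), a TFCP2L1-type site (CCNG repeated after 6 bases) and TATAAA (a core promoter element) were only counted. The KLF-type site was present in 5 of the 7 windows, against 23.3% of 32851 RefSeq promoter windows of the same length. The windows of these members had a GC content of 52.0% to 74.0%, against a median of 52.4% over all promoter windows, and the part of GC content in the motif count was not tested. The STAT site was present in 1 window (7.02% of all promoters) and the ESRRB site in 0 windows (4.08% of all promoters). The TFCP2L1-type site was present in 3 windows, those of Klf2, Nr0b1 and the upstream Esrrb start (24.9% of all promoters), TATAAA in 2, Nr0b1 and Tfcp2l1 (12.4%), and the TCF site in 0 (16%). Capitals mark the KLF-type and STAT motifs in the 5 windows that held a match, each written 5′ to 3′ on the strand of the gene. A match describes letters in the window and is not evidence of binding.
Esrrb, chr12:86360867-86361116, plus strand: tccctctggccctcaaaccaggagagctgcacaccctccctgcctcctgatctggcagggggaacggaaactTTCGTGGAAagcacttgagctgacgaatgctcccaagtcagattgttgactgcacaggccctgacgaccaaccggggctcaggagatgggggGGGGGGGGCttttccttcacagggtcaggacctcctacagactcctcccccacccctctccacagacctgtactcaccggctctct
Klf2, chr8:72318812-72319061, plus strand: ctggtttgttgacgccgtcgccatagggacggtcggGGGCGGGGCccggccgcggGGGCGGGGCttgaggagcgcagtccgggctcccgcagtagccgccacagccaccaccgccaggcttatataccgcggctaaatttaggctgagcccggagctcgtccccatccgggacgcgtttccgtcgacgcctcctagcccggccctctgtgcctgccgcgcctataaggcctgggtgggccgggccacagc
Klf4, chr4:55532476-55532725, minus strand: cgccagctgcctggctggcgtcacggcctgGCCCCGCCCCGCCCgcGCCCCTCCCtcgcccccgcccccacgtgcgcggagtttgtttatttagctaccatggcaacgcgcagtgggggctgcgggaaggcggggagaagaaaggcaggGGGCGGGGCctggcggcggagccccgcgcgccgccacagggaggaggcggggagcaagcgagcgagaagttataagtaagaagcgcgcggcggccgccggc
Tfcp2l1, chr1:118627695-118627944, plus strand: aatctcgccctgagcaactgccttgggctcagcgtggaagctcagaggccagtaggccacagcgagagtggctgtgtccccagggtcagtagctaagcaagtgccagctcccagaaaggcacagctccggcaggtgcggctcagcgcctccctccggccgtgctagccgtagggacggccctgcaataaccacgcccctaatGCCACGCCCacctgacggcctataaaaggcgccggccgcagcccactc
Zfp42, chr8:43307010-43307259, minus strand: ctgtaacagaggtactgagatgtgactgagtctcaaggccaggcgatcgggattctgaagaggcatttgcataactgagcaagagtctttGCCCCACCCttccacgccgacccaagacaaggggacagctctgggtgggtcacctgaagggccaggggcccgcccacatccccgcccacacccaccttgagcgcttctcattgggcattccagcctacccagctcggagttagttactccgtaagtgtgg
The Esrrb window held the only STAT match, TTCGTGGAA, along with a single KLF-type match inside a run of G. The Klf4 window held 4 KLF-type matches, some of which overlap and share letters, and the Klf2 window held 2, both reading GGGCGGGGC. Klf2 and Klf4 are themselves members of the KLF family whose site was searched.

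Library totals ran from 24.5 to 40.6 M counts (median 32.6 M), and mitochondrial genes took 1.98% to 7.71% of them. Bod1l was 33.6 to 62.2 CPM (read counts brought to 1 common library total) in the 6 Bod1L knockout libraries and 166 to 345 CPM in the 6 wild-type ones, without overlap. Setd1a counts overlapped between Setd1a knockout (37.3 to 43.8 CPM) and wild-type libraries (40.9 to 58.8 CPM). Kmt2b counts overlapped between Mll2 knockout (113 to 145 CPM) and wild-type libraries (89.6 to 210 CPM). In the library labelled Mll2 wild type 2i replicate 2, Kmt2b was 89.6 CPM, below every Mll2 knockout library. Gene counts check a conditional deletion only where the deleted part is counted, so an overlap does not show a failed deletion. The library numbers in the table headers form a lower series of 23 libraries and a higher series of 13, and the higher series holds all 12 EpiSC libraries and Setd1a knockout 2i replicate 1, so that series and EpiSC medium cannot be told apart. Bulk RNA does not distinguish fewer cells that express a gene from less RNA per cell.

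In wild-type cells, all 10 members had their highest mean level in 2i and their lowest in EpiSC medium, with FCS between, although the steps differed widely in size. From FCS to 2i, 5 of 10 members were higher: Klf2, Tfcp2l1, Prdm14, Tbx3 and Esrrb (edgeR, adjusted p below 0.05). The same call was made for 14.5% of all tested genes. The 5 others, Klf4, Klf5, Nr0b1, Zfp42 and Dppa3, did not pass the threshold. The median log2 difference was 0.83 over the members and 0.02 over all tested genes.

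Among the KLF factors, Klf2 had a lowest, median and highest level of 136, 212 and 579 CPM in the 6 wild-type 2i libraries and of 48.6, 93.2 and 118 CPM in the 6 FCS libraries. Its ranges did not overlap between these media, and the log2 difference was 1.42 ± 0.23 (± SE; adjusted p = 6.3e-05). The value of 579 CPM belonged to the library labelled Mll2 wild type 2i replicate 2, and the next highest wild-type 2i library had 218 CPM. Klf4 was 224, 320 and 513 CPM in 2i and 70.0, 169 and 508 CPM in FCS. The Klf4 ranges overlapped only through Mll2 replicate 1 in FCS at 508 CPM, and the next highest wild-type FCS library had 182 CPM. The Klf4 difference was 0.79 ± 0.39 (adjusted p = 0.140). Klf5 was 62.9, 115 and 146 CPM in 2i and 29.9, 92.3 and 113 CPM in FCS. These overlapped as well, and the Klf5 difference of 0.33 did not pass (adjusted p = 0.412).

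Tfcp2l1, the STAT3 target, and Prdm14 had the largest log2 differences between 2i and FCS of the group. Tfcp2l1 was 860, 1121 and 1598 CPM in 2i and 88.0, 197 and 1079 CPM in FCS, a difference of 2.08 ± 0.40 (adjusted p = 0.000399). The 2i and FCS ranges overlapped only through the Mll2 FCS library at 1079 CPM. Esrrb was 494, 592 and 718 CPM in 2i against 206, 317 and 620 CPM in FCS, a difference of 0.85 ± 0.20 (adjusted p = 0.00293), and again the Mll2 FCS library at 620 CPM made the ranges overlap. Tbx3 was 151, 237 and 321 CPM in 2i and 21.2, 58.0 and 268 CPM in FCS, a difference of 1.58 ± 0.35 (adjusted p = 0.00158). Prdm14 was 42.4, 74.8 and 101 CPM in 2i and 7.47, 12.2 and 51.6 CPM in FCS, a difference of 2.07 ± 0.47 (adjusted p = 0.00195). The lowest Prdm14 library in 2i and the highest in FCS were both Mll2 replicate 1.

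The remaining members showed no called difference between 2i and FCS. Nr0b1 was 42.3, 86.0 and 182 CPM in 2i and 30.6, 44.7 and 99.2 CPM in FCS (0.82 ± 0.38; adjusted p = 0.113). Zfp42 was 94.1, 448 and 526 CPM in 2i and 63.6, 339 and 752 CPM in FCS (0.14; adjusted p = 0.880), a difference whose sign changed when some libraries were left out, and its lowest library in each medium was Mll2 replicate 1. Dppa3 was 6.40, 48.9 and 95.1 CPM in 2i and 25.4, 30.5 and 61.4 CPM in FCS (0.26; adjusted p = 0.740), with a sign that also depended on the libraries used. Over the 24 libraries of both genotypes, no member had every FCS library below every 2i library, a pattern held by 1.98% of tested genes.

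In EpiSC medium, all 10 members fell against 2i and all 10 fell against FCS, where 27.4% and 20.6% of all tested genes fell. The log2 differences of Zfp42, Prdm14, Tbx3 and Esrrb from 2i to EpiSC medium were -7.60 ± 0.65, -8.59 ± 0.71, -6.38 ± 0.45 and -6.23 ± 0.26. Klf5, the least changed, fell by 2.21 ± 0.29 (adjusted p = 1.62e-06). The median member difference was -6.11 against 2i and -5.06 against FCS, where the medians of all tested genes were -0.07 and -0.01. Some EpiSC libraries hold no counts for a member, and fitted values then depend on the prior count. With levels under 3 counts set to 3 counts, the medians were -5.97 and -4.99, and the Prdm14 difference from 2i was -7.65 in place of -8.59.

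In the 6 wild-type EpiSC libraries, Esrrb was 0.737, 3.14 and 163 CPM (lowest, median, highest) and Klf4 2.48, 5.19 and 114 CPM. Zfp42 was 0.0546, 1.49 and 101 CPM and Tfcp2l1 4.67, 32.3 and 80.0 CPM. These spans are far wider than in 2i, and the high end belonged in each case to the Setd1a line. Klf5 was different, at 7.28, 18.9 and 37.3 CPM, with its highest library in the Mll2 line. Against FCS, Klf5 fell by 1.88 ± 0.29 (adjusted p = 2.56e-05), Tfcp2l1 by 2.99 ± 0.41 and Klf2 by 3.53 ± 0.25.

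Across all 36 libraries, every EpiSC library lay below every 2i library for 8 members, the exceptions being Dppa3 and Zfp42, a separation that 3.91% of tested genes showed. Every EpiSC library lay below every FCS library for 3 members, Esrrb, Klf2 and Nr0b1 (2.08% of tested genes).

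**Figure D1:**
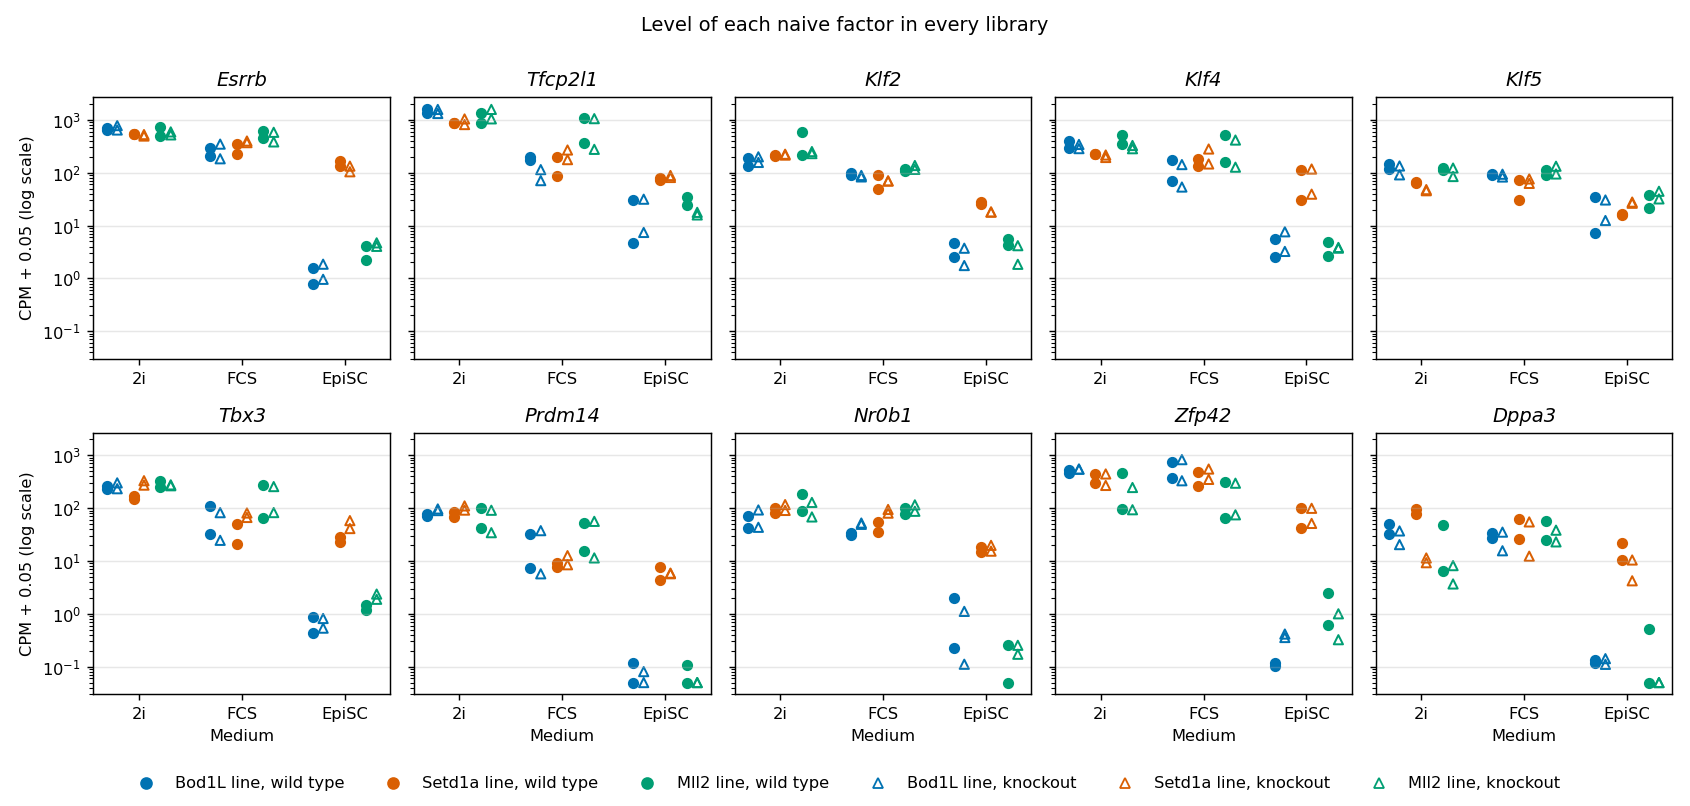
Level of each of the 10 genes in the 36 libraries, in CPM plus a small offset on a log axis, by medium, with lines and genotypes marked separately. Points of the Setd1a line stand above the other EpiSC libraries for all genes but Klf5.

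Levels of different genes can be compared only per length, as CPM per kilobase of counted length. On this scale wild-type 2i cells had most Zfp42 (203 ± 84.8, mean ± SD, n = 6), followed by Klf2 (139 ± 86.8), Tfcp2l1 (123 ± 34.4), Klf4 (109 ± 36.4), Esrrb (100 ± 15.7), Klf5 (60.5 ± 19.1), Dppa3 (57.8 ± 35.6), Nr0b1 (52.2 ± 26.0), Tbx3 (34.8 ± 9.50) and Prdm14 (28.9 ± 7.64). Of neighbours in that order, only Esrrb and Klf5 differed by more than the larger of their SD values. In FCS, Zfp42 again led (197 ± 123) and Klf4 (67.1 ± 50.5) and Esrrb (58.8 ± 25.9) came next, while Tbx3 (13.7 ± 13.9) and Prdm14 (8.00 ± 6.95) were lowest. Tfcp2l1 stood below 2 members in 2i and below 6 in FCS (37.2 ± 39.0). In EpiSC medium, Zfp42 and Klf5 were each at 12.9, with SD values of 21.8 and 6.90, and Prdm14 was lowest at 0.785 ± 1.27. The Zfp42 mean came from the Setd1a line, at 71.3 CPM against 0.0621 CPM in Bod1L and 1.49 CPM in Mll2 wild-type cells. Klf5 was 15.8, 21.3 and 29.5 CPM in the same order, so the tie does not describe the single lines.

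The 3 lines did not lose the factors to the same extent. From 2i to EpiSC medium, all 10 members fell in wild-type Bod1L cells (16.5% of tested genes) and all 10 in Mll2 cells (20.9%), while 7 of 10 fell in Setd1a cells (5.60%). Dppa3, Klf4 and Zfp42 did not pass in the Setd1a line (adjusted p = 0.0670, 0.121 and 0.0597). With 1 of its libraries left out, 3 to 5 members were called in the Setd1a line, with 3 called without wild-type EpiSC replicate 2 and 4 without wild-type 2i replicate 1. The medium effect differed between the wild-type lines for 8 of 10 members (3.89% of tested genes), with Klf5 (adjusted p = 0.942) and Tfcp2l1 (0.0552) not called. In contrast, the 2i to FCS difference alone was called as differing between lines for 0 of 10 members (0.0553% of tested genes), with 1 member at an unadjusted p below 0.05 in edgeR. Averaged over the media, wild-type lines differed for 6 of 10 members (14.7% of tested genes): Dppa3, Esrrb, Klf2, Nr0b1, Prdm14 and Zfp42.

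In EpiSC medium the 4 Setd1a libraries, wild type and knockout, were above all 8 libraries of the other lines for 9 of 10 members, a pattern seen in 4.82% of tested genes. Esrrb was 104 to 163 CPM in the Setd1a libraries against 0.737 to 4.65 CPM in the other 8, and Zfp42 41.4 to 101 against 0.0546 to 2.42 CPM. Klf2 was 17.9 to 27.5 against 1.70 to 5.48 CPM, Klf4 30.3 to 117 against 2.48 to 7.56 CPM, and Tbx3 22.9 to 57.9 against 0.382 to 2.31 CPM. Nr0b1 was 15.0 to 19.7 against 0 to 1.94 CPM, and Tfcp2l1 71.5 to 88.4 against 4.67 to 34.4 CPM. Prdm14 had 112 to 269 counts in each Setd1a library and 0 to 2 counts in each of the other 8, all of them under 3 counts. Dppa3 was 4.16 to 22.0 CPM against 0 to 0.467 CPM, with 5 of the 8 other libraries under 3 counts. Klf5 alone overlapped, at 15.5 to 27.7 CPM in the Setd1a line and 7.28 to 44.4 CPM in the others.

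Wild-type Setd1a cells in EpiSC medium exceeded wild-type Bod1L cells in 8 of 10 members (4.71% of tested genes called higher) and wild-type Mll2 cells in 8 of 10 (3.31%). Esrrb was 7.04 ± 0.47 higher on the log2 scale than in Bod1L cells (adjusted p = 6.48e-09) and 5.56 ± 0.43 higher than in Mll2 cells (adjusted p = 1.48e-07). Klf2 was higher by 2.89 ± 0.43 and 2.47 ± 0.42, Klf4 by 4.17 ± 0.78 and 4.28 ± 0.78, and Tbx3 by 5.40 ± 0.77 and 4.31 ± 0.71. Nr0b1, Zfp42, Prdm14 and Dppa3 were called in both comparisons, but their fitted fold changes rest on groups near 0 counts and are not given. Tfcp2l1 (2.12 ± 0.70, adjusted p = 0.0765, and 1.37 ± 0.68, adjusted p = 0.266) and Klf5 (-0.43 and -0.90, adjusted p = 0.698 and 0.315) were not called. These comparisons share the Setd1a libraries. They were added after the values had been seen, so their p-values are not those of planned tests. Between Mll2 and Bod1L cells, 1 of 10 was called, Esrrb at 1.48 ± 0.40 (adjusted p = 0.0459; 1.57% of tested genes were higher). That call was lost with RLE size factors, with limma-voom and without Mll2 wild-type EpiSC replicate 2.

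The summed level of the 10 members per kilobase was 113 to 190 in the 4 Setd1a EpiSC libraries and 9.69 to 32.6 in the other 8. In 2i the corresponding sums were 696 to 833 and 645 to 1201, and in FCS 383 to 592 and 385 to 741. In wild-type Setd1a cells the members' EpiSC means were 7.86% to 31.9% of their 2i means. In Bod1L and Mll2 wild-type cells they were 0.0126% to 16.2% and 0.0406% to 25.3%, with Klf5 the highest in each.

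**Figure D2:**
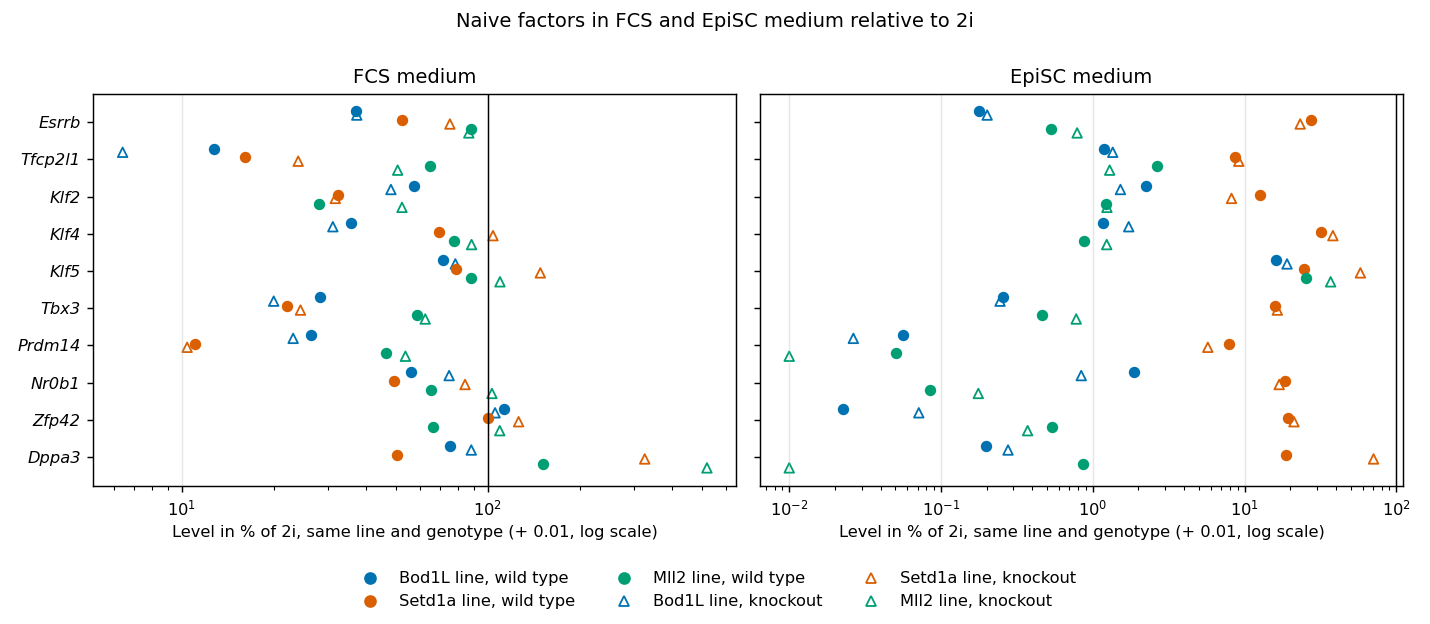
Level of each gene in FCS (left) and EpiSC medium (right) as a percent of the 2i level of the same line and genotype, from means of 2 replicates, plus a small offset on log axes. In EpiSC medium the Setd1a points lie between 5.72% and 70.8%, and Klf5 is the highest point of both genotypes in the Bod1L and Mll2 lines.

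Markers of other states differed beside it, and their part in it was not tested. Fgf5, a ligand of the primed epiblast, was 3.92 to 14.7 CPM in the Setd1a EpiSC libraries and 35.6 to 270 CPM in the other 8. The other primed markers were mixed between wild-type Setd1a and Bod1L EpiSC libraries. Dnmt3b was 281 and 517 CPM in Setd1a and 225 and 259 CPM in Bod1L libraries. Pou3f1 was 37.1 and 50.6 against 27.4 and 30.9 CPM. Otx2 was split, at 3.53 and 54.1 against 19.0 and 11.4 CPM. Zic2 (49.5 and 56.0 against 128 and 124 CPM) and Sox3 (12.6 and 6.18 against 13.4 and 30.8 CPM) were lower in Setd1a libraries. Against wild-type Mll2 libraries, Otx2 (187 and 123 CPM) and Zic2 (97.3 and 82.0 CPM) were lower in Setd1a. Dnmt3b, Pou3f1 and Sox3 overlapped there. Of 17 formative and primed genes, edgeR called 0 between wild-type Setd1a and Bod1L cells, with 5 at an unadjusted p below 0.05. The summed primed markers (6 genes) were 129 to 699 CPM in Setd1a EpiSC libraries, 409 to 531 CPM in Bod1L and 797 to 1019 CPM in Mll2 libraries. The summed mesendoderm markers (8 genes) were 9.98 to 18.8 CPM in Setd1a, 12.8 to 54.0 CPM in Bod1L and 221 to 951 CPM in Mll2 EpiSC libraries. The summed fibroblast or feeder markers (9 genes) were 86.0 to 162 CPM in Mll2 EpiSC libraries and reached 4022 CPM in the Setd1a and 6770 CPM in the Bod1L line. The summed germ cell markers (10 genes, among them Dppa3 and Prdm14) were 145 to 237 CPM in the 4 Setd1a EpiSC libraries and 44.5 to 132 CPM in the other 8, without overlap. The summed two-cell-like markers (8 genes) were 108 and 0.845 CPM in wild-type and 310 and 19.4 CPM in knockout Setd1a EpiSC libraries, and at most 1.22 CPM in the other 8. The summed primed and mesendoderm markers of the Setd1a EpiSC libraries overlapped with those of the Bod1L libraries.

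Within 2i and within FCS, no member was called between any pair of wild-type lines in edgeR (0 of 10 in each of 6 comparisons), where 2.95%, 1.79% and 2.33% of tested genes were in 2i (Setd1a against Bod1L, Setd1a against Mll2, Mll2 against Bod1L) and 0.868%, 0.0638% and 1.56% in FCS. At an unadjusted p below 0.05, 1 member was found in each 2i comparison, and 0, 5 and 4 in the FCS comparisons in the same order. DESeq2 called 1 member for Mll2 against Bod1L in 2i and 1 in FCS. In FCS the Mll2 line held the highest wild-type libraries for Esrrb, Klf2, Klf4, Klf5, Tbx3, Nr0b1, Tfcp2l1 and Prdm14.

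The 2 replicates of a group were often unequal for the members. Over members and groups, the median ratio of higher to lower replicate was 1.23 in 2i, 1.64 in FCS and 1.80 in EpiSC medium. Among tested genes with a mean of at least 5 CPM it was 1.17, 1.24 and 1.27. The member ratios in EpiSC medium include groups with very few counts, so members and these genes were not matched in level. The Mll2 line in FCS showed unequal replicates most plainly. Tfcp2l1 was 1079 and 371 CPM in wild-type replicates 1 and 2 and 1052 and 276 CPM in knockout replicates 1 and 2. Tbx3 was 268 and 66.4, then 255 and 82.2 CPM, Prdm14 51.6 and 15.3, then 56.1 and 11.4 CPM, and Klf4 508 and 161, then 414 and 127 CPM. For these 4 genes replicate 1 of each genotype lay within the range of the 12 libraries in 2i, and for Zfp42 the order was the reverse, with 63.6 and 310 CPM in wild-type and 74.6 and 296 CPM in knockout cells. Zfp42 was low in replicate 1 of the Mll2 line in 2i also, at 94.1 against 469 CPM in wild-type and 93.1 against 245 CPM in knockout cells. Over all lines and media, the higher replicate had the same number in knockout and wild-type cells in 71 of 90 cases. These cases share libraries and include groups near 0 counts. Over genes with a mean of at least 5 CPM, the replicate differences of knockout and wild-type cells also correlated, with r from 0.401 to 0.848.

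Knockout and wild-type libraries of the Setd1a line did not overlap for 7 of 10 members in 2i, 3 in FCS and 5 in EpiSC medium, where 66.1%, 33.8% and 34.3% of tested genes did not. In edgeR without a term for replicate number, the only member called in any line or medium was Dppa3 in the Setd1a line averaged over the 3 media, at -1.54 ± 0.48 (adjusted p = 0.0499). This call was lost in 10 of 12 fits that left out 1 Setd1a library, and with another size factor (RLE). It was 1 of 10 members called, where 8.85% of tested genes were called (5.57% lower). In single media 0 of 10 members were called for Setd1a (1.69%, 0.762% and 1.54% of tested genes in 2i, FCS and EpiSC medium), for Bod1L (0.374%, 0.191% and 0.438%) and for Mll2 (0.464%, 0% and 0%). Averaged over media, 0 of 10 were called for Bod1L (2.03%) and for Mll2 (0.694%). At an unadjusted p below 0.05 there were 1, 0 and 0 members for Setd1a, 0, 0 and 0 for Bod1L, and 1, 0 and 1 for Mll2 in 2i, FCS and EpiSC medium, and 2, 0 and 1 averaged over the media. DESeq2 called 1 member for Setd1a in 2i, 2 for Setd1a on average and 1 for Mll2 on average. The knockout effect was called as differing between media for 0 of 10 members in each line (0%, 0% and 0.00426% of tested genes for Bod1L, Setd1a and Mll2), with 0 members at an unadjusted p below 0.05.

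Knockout and wild-type samples with the same replicate number deviated together in every line and medium, and a fit with replicate number as a block called more genes overall and more members. With the block, 2, 2 and 2 of 10 members were called for Setd1a in 2i, FCS and EpiSC medium (12.4%, 3.91% and 11.9% of tested genes), and 3 of 10 on average (26% of tested genes). The corresponding counts were 0, 1 and 1 for Bod1L (2.8%, 1.66% and 2.19%), with 1 on average (6.17%), and 1, 0 and 1 for Mll2 (6.96%, 0.825% and 2.16%), with 2 on average (7.2%). The shares of called genes rose over the whole table as well.

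Dppa3, the oocyte and early embryo protein, was 95.1 and 78.1 CPM in wild-type Setd1a replicates in 2i and 11.3 and 9.22 CPM in the knockout replicates. The knockout values lay below both wild-type values, in a comparison where 66.1% of tested genes did not overlap. In FCS it was 61.4 and 26.1 against 54.7 and 12.3 CPM, which overlapped, and in EpiSC medium 22.0 and 10.4 against 10.4 and 4.16 CPM. With the block, Dppa3 fell by 3.07 ± 0.33 in 2i (adjusted p = 1.44e-05), by 1.20 ± 0.32 in EpiSC medium (adjusted p = 0.0221) and by 1.63 ± 0.18 on average (adjusted p = 4.33e-06). The Setd1a effect on Dppa3 differed between media in that fit (adjusted p = 0.0479; 0.179% of tested genes). Dppa3 reads may in part come from or go to a copy: Dppa3-ps matches 451 bases of its transcript, 54.1% of the length, at 98.2% identity, and was counted at 0 to 9.04 CPM. Gm47576 matches 450 bases of the Dppa3 transcript at 91.1% identity. Dppa3 levels are therefore uncertain. Other members had near copies too, among them Zfp42-ps1 for Zfp42 (266 bases, 14.5% of the length, 98.1% identity). For Klf5, Gm6007 matches 822 bases (24.5% of the length) at 90.0% identity. The part of these copies in the counts was not tested.

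Dppa3 was also lower in Mll2 knockout cells in 2i, at 3.62 and 8.11 CPM against 6.40 and 48.5 CPM, with overlap. The block gave -1.75 ± 0.34 in 2i (adjusted p = 0.00317) and -2.66 ± 0.54 on average (adjusted p = 0.00452). The averaged value includes an EpiSC term of -5.84 that was not called (adjusted p = 0.0922) and rests on libraries at 0 to 0.467 CPM, while the FCS term was -0.38, so its size depends on counts near 0. Without the block the average was -2.87 ± 0.92 (adjusted p = 0.227). The 2i value rests on the library labelled Mll2 wild type 2i replicate 2, since without it the unblocked difference was -0.11 (adjusted p = 1).

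Tbx3 was higher in Setd1a knockout cells in each medium: 330 and 272 against 169 and 151 CPM in 2i, 66.4 and 80.7 against 21.2 and 49.7 CPM in FCS, and 57.9 and 41.0 against 22.9 and 27.8 CPM in EpiSC medium. Knockout libraries lay above wild-type libraries in all 3 media, where 66.1%, 33.8% and 34.3% of tested genes did not overlap in either direction. The averaged log2 difference was 0.98 ± 0.35 without the block (adjusted p = 0.0848) and 1.01 ± 0.12 with it (adjusted p = 9.54e-06). With the block Tbx3 rose by 0.91 ± 0.21, 1.17 ± 0.22 and 0.95 ± 0.22 in 2i, FCS and EpiSC medium (adjusted p = 0.00815, 0.00324 and 0.00842). Tbx3 and Zfp42 were the 2 members whose knockout effect differed between the lines with the block (adjusted p = 0.00239 and 0.00320; 12% of tested genes), and none did without it (2.03%). That test averages over the media. For Zfp42 it includes EpiSC libraries of 0.0546 to 2.42 CPM in the Bod1L and Mll2 lines, so the Zfp42 call depends on very low counts.

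Nr0b1 in Setd1a knockout cells was 80.2 and 94.2 CPM in FCS against 34.5 and 55.0 CPM in wild-type cells, without overlap, as for 33.8% of tested genes. With the block the difference was 1.00 ± 0.22 in FCS (adjusted p = 0.0109) and 0.41 ± 0.12 on average (adjusted p = 0.0192). Tfcp2l1 in Bod1L knockout cells was 114 and 70.7 CPM in FCS against 201 and 176 CPM, and fell by 1.06 ± 0.25 with the block (adjusted p = 0.0360). For Zfp42, the block gave calls for Bod1L in EpiSC medium (adjusted p = 0.0391) and on average (adjusted p = 0.0249). These rest on EpiSC libraries of 0.0546 to 0.364 CPM, since the differences in 2i and FCS were 0.15 and -0.01. It also gave calls for Mll2 in EpiSC medium (adjusted p = 0.0465) and on average (-0.55 ± 0.14, adjusted p = 0.0222). There Zfp42 was 0.555 and 2.42 CPM in wild-type and 0.274 and 0.951 CPM in knockout EpiSC libraries, which overlapped, and the unblocked 2i difference turned to 0.86 without the library labelled Mll2 wild type 2i replicate 2.

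**Figure D3:**
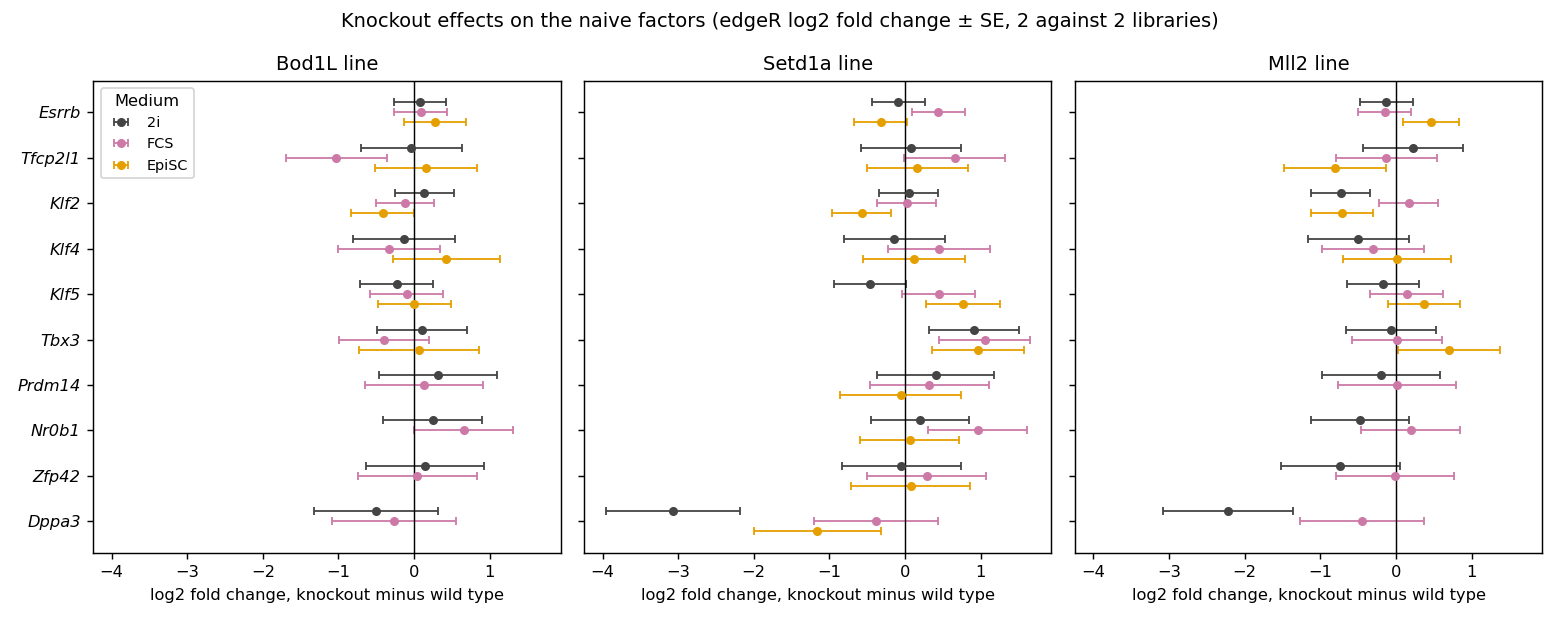
Log2 difference between knockout and wild-type cells for each gene, medium and line, without the replicate block, with bars of 1 SE. EpiSC points of Prdm14, Nr0b1, Zfp42 and Dppa3 in the Bod1L and Mll2 lines are not drawn, as their counts lie near 0. Dppa3 is the lowest and Tbx3 the highest of the Setd1a points in 2i.

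Markers of other cell types also differed between knockout and wild-type libraries. Summed two-cell-like markers were 718 to 749 CPM in Setd1a knockout 2i libraries and 121 to 150 CPM in wild-type ones, with Zscan4c at 417 and 438 CPM against 70.3 and 86.5 CPM. Summed primitive endoderm markers were 128 to 153 CPM against 45.7 to 46.2 CPM in 2i, and 274 to 389 CPM against 150 to 189 CPM in FCS. In EpiSC medium they were 1159 and 232 CPM in knockout and 339 and 173 CPM in wild-type Setd1a libraries, and summed fibroblast or feeder markers were 4022 and 165 against 1099 and 147 CPM. In the Mll2 line, where Dppa3 was called lower in 2i with the block, summed two-cell-like markers in 2i were 5.09 and 3.13 CPM in knockout and 119 and 21.4 CPM in wild-type libraries. The part of such cells in the Dppa3 and Tbx3 values was not tested.

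Gene lists around the naive factors were read against all tested genes, of which 14.5% were higher and 13.3% lower in 2i than in FCS. Of 17 LIF, STAT3 and Wnt pathway genes, 4 were higher and 3 lower in 2i than in FCS, with the Wnt target Axin2 up by 3.16 ± 0.46 and Gbx2, a STAT3 and Wnt target, by 2.68 ± 0.59, and with Junb, a signal-induced AP-1 factor, and the LIF receptor gene Lifr lower, at -2.07 ± 0.43 and -1.15 ± 0.23. Of 26 other naive state genes, 9 were higher and 1 lower. Spic (3.50 ± 0.51), Pramel7 (2.89 ± 0.72) and Jam2 (2.42 ± 0.45) were higher, and the germline gene Mael was lower (-2.76 ± 0.53). Of 17 formative and primed genes, 12 were lower and 2 higher, with Otx2 (-6.66 ± 0.90), Fgf5 (-6.00 ± 0.69) and Pou3f1 (-4.22 ± 0.58) lower and Zic2 (0.99 ± 0.32) and Tead2 (0.58 ± 0.21) higher. Of 8 core pluripotency genes, 4 were lower in 2i, among them Utf1 (-3.71 ± 0.43) and Lin28a (-3.32 ± 0.32).

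From 2i to EpiSC medium, where 27.4% of tested genes fell and 25.1% rose, all 26 other naive state genes fell, as the members did, and Spic, Pramel7 and Tcl1 went from wild-type means of 20.9, 6.33 and 44.9 CPM in 2i to 0.128, 0.0154 and 3.55 CPM. Of the formative and primed genes 15 of 17 rose, and Fgf5, Otx2 and Fgf15 rose by 8.46 ± 0.73, 6.40 ± 0.89 and 4.60 ± 0.76. Of the 8 core genes 3 fell and 3 rose. Sox2 fell by 2.33 ± 0.22 and Lin28a rose by 3.25 ± 0.32. Of 24 tested paralogues of the members, 10 fell and 4 rose. Klf8 and Klf9 fell by 2.96 ± 0.28 and 1.83 ± 0.23, and Klf7 and Klf6 rose by 2.22 ± 0.27 and 1.80 ± 0.22. Other KLF factors thus moved both ways, while Klf2, Klf4 and Klf5 fell. Of the 17 pathway genes, 7 fell and 2 rose.

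In EpiSC medium, other naive state genes were also called higher in wild-type Setd1a cells. These were 14 of 26 against Bod1L (4.71% of tested genes) and 17 of 26 against Mll2 wild-type cells (3.31%). Dppa5a was 251 and 143 CPM in wild-type Setd1a libraries, against 0.279 and 0.382 CPM in Bod1L and 0.247 and 2.01 CPM in Mll2 libraries. Tcl1 was 13.5 and 7.76 CPM against 0 and 0.0273 CPM in Bod1L and 0 and 0.0583 CPM in Mll2 libraries, and no fold is given for it. Among the core genes Sox2 was 1.88 ± 0.37 higher than in Mll2 cells. Fgf5 was lower than in Mll2 cells (-4.36 ± 0.95, adjusted p = 0.00797) and Dnmt3a, a de novo DNA methyltransferase, was higher (2.19 ± 0.58).

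In the Setd1a line, 2 of the 26 other naive state genes were lower and 1 was higher in knockout cells on average over the media, in the fit without the block, where 5.57% of tested genes were lower and 3.29% higher. Lrrc34 fell by 1.63 ± 0.27 and Pramel7 was 3.01 ± 0.88 higher. The Pramel7 average includes EpiSC medium, where its wild-type counts were very low, so its size is uncertain. The RNA-binding protein gene Lin28a fell by 1.35 ± 0.30, the formative and primed genes Zic2, Tead2 and Zic5 fell by 1.15, 0.95 and 0.92, and the paralogues Prdm1 and Klf13 by 1.11 and 0.44. For Mll2, Lin28b, of the formative and primed list, fell by 3.97 ± 0.58 in 2i and by 1.69 ± 0.30 on average.

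Across the 18 group means on the log2 scale, the members followed each other closely. The 45 pairs had a Pearson r of 0.659 to 0.984 (median 0.935), where the groups share their lines, media and libraries. With each medium's mean removed, r was -0.207 to 0.965 (median 0.830), and 40 of 45 were above 0. Removing the EpiSC groups also left 12 groups with r from -0.727 to 0.906 (median 0.351), 33 of 45 above 0. In these 12 groups Esrrb and Tfcp2l1 (0.906), Tbx3 and Tfcp2l1 (0.878) and Esrrb and Klf4 (0.871) were most alike. Zfp42 was negative with 8 of the other 9 members, lowest with Klf2 (-0.727) and Nr0b1 (-0.720). In both media the Mll2 groups had the lowest Zfp42 and the highest Klf2 means. The part of this line in the negative values was not tested.

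The genes most like each member over the 18 groups, by Pearson r of log2 CPM among genes of at least 5 CPM, were in some cases shared between members. Those of Esrrb were Gm10451, Pnma5 and Gm13929, all at 0.992, and those of Prdm14 were Gm15529 (0.993), Phf11d (0.991) and Hormad1 (0.988). Klf2 was most like Phf11d (0.987), Jade1 (0.985) and Gm14820 (0.985), and Klf4 most like Rfx2 (0.984), Jade1 (0.983) and Esrrb (0.982). Tbx3 had Mobp (0.987), Fam178b (0.986) and Prdm14 (0.984), and Tfcp2l1 had Fbrsl1 (0.980), Nfatc2ip (0.980) and Mobp (0.975). Nr0b1 was nearest to Angptl4 (0.984), 4930566F21Rik (0.982) and Pnldc1 (0.979), and Zfp42 to Syce1, Trim25 and Gm10451 (each 0.984). Dppa3 was nearest to Pla2g1b (0.981), Ttpa (0.970) and Dppa5b (0.969). Klf5 had the least close partners, Cd9 (0.938), Cd9-ps (0.933) and Slc17a9 (0.933), with reads of Cd9 and its pseudogene uncertain between copies.

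**Figure D4:**
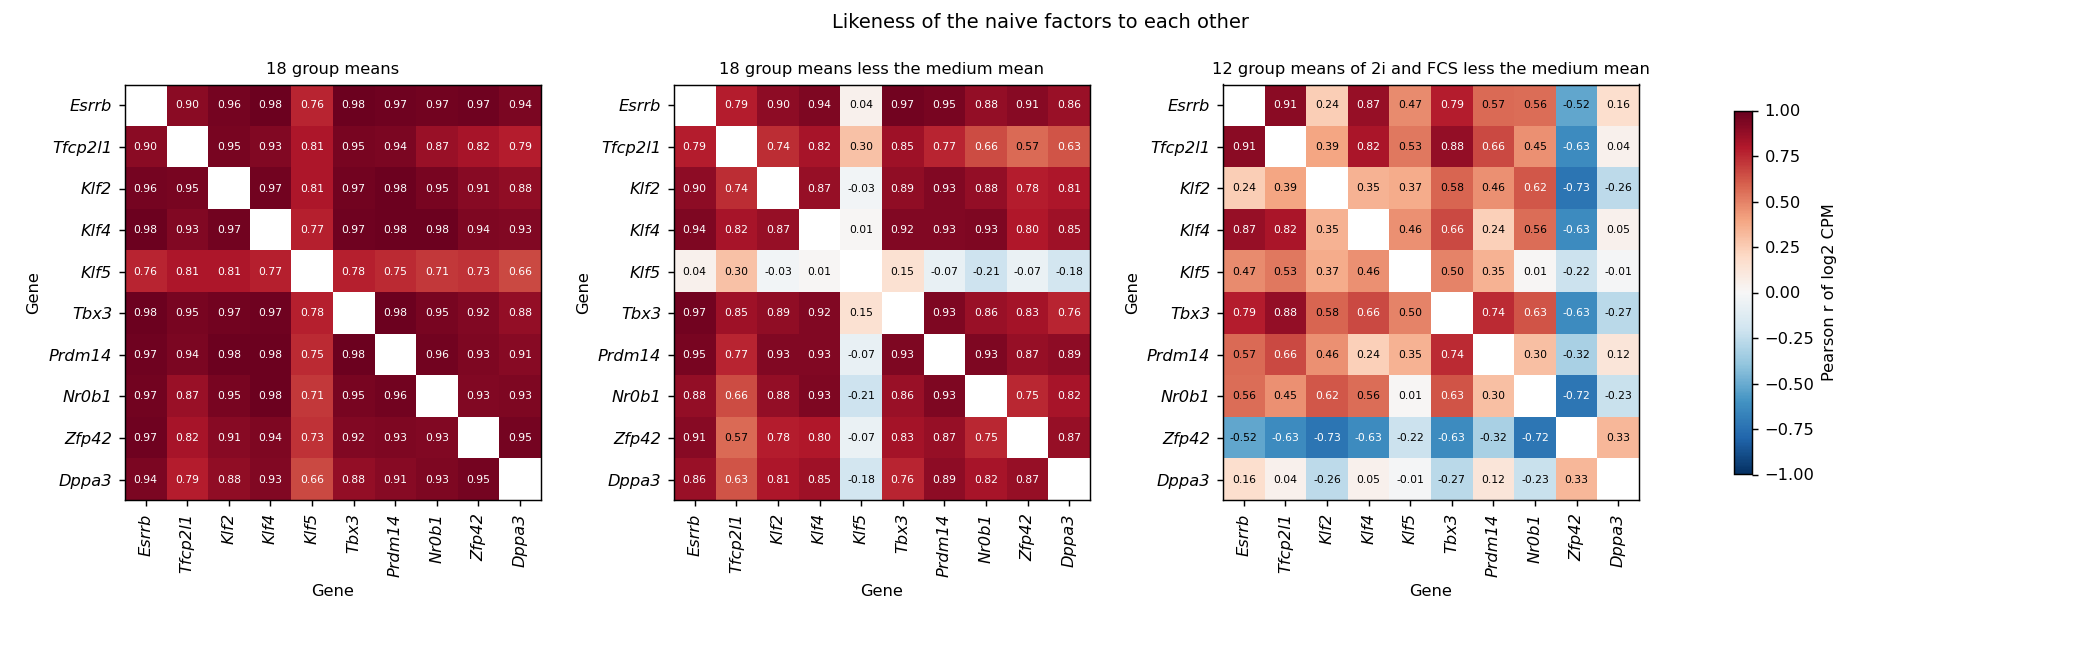
Pearson r between each pair of the 10 genes over the 18 group means, the same after each medium's mean was removed, and over the 12 groups in 2i and FCS after removal of the medium means. The high values of the 18-group panel thin out in the 12-group panel, where Zfp42 is negative with 8 of the other 9.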

How the data were processed

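Single-end RNA-seq reads were counted per gene by the authors, and the deposited table holds these raw counts. Per the file headers they were made with featureCounts 1.5.2 (strand setting 2, primary alignments, mapping quality of at least 1, Ensembl release 87). Per the submitters' processing notes, reads were aligned with GSNAP 2017-03-17 to GRCm38. Per the labels' protocols, libraries were poly(A)-selected, random-primed and stranded. The sources used here do not give read trimming. The table had 49763 lines, of which 92 spike-ins held 0 counts and were removed.

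Genes were kept by filterByExpr (minimum count 10), which left 23501. Their counts were scaled by TMM and fitted with edgeR 4.0.16, by its quasi-likelihood method, in a single model with 1 mean for each of the 18 groups, which leaves 18 residual degrees of freedom. R 4.3.3 and the data.table package (version 1.17.8) were used. Adjusted p-values are Benjamini-Hochberg values over all tested genes within a comparison, called below 0.05. Of the 37 comparisons, 30 had 1 contrast. The alternatives were DESeq2 1.42.0, limma 3.58.1 (voom), RLE size factors, no filter, fewer libraries, a replicate block and each replicate left out. Fits were tested on simulated data. Symbols came from GENCODE M21 and promoters from RefSeq.

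Knockout and wild-type replicates with the same number deviated together (r of replicate differences in the order 2i, FCS, EpiSC: Bod1L 0.848, 0.720, 0.826, Setd1a 0.497, 0.401, 0.799, Mll2 0.471, 0.772, 0.739), so the block was used for knockout comparisons. The pairing is inferred from these data and the labels do not state it. All 10 members are named. Of each list up to 3 genes called lower and up to 3 called higher were named by size of change among genes of at least 5 CPM, and up to 3 genes of highest r with each member. Some genes that pass this rule are left out of the text. The members and lists were chosen with earlier results of these data known.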

Additional observations from a re-analysis of the deposited data

Results flagged for a closer look

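The wild-type lines differed in their level averaged over the 3 media for 6 members, by edgeR F tests over all genes. The adjusted p-values were 0.000381 for Dppa3, 1.79e-07 for Esrrb, 0.0175 for Klf2, 0.00298 for Nr0b1, 0.0226 for Prdm14 and 0.000487 for Zfp42. The difference between media itself depended on the line for 8 members. The adjusted p-values of these tests were 0.0112 for Dppa3, 3.68e-08 for Esrrb, 0.000886 for Klf2, 0.00383 for Klf4, 0.00112 for Nr0b1, 0.00213 for Prdm14, 0.000217 for Tbx3 and 0.000722 for Zfp42. In both sets the libraries of the Setd1a line in EpiSC medium lay above the other EpiSC libraries, as described above. Each line is 1 source of cells, so line and culture history cannot be told apart.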

How the results depend on the processing

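All 10 members were called lower in EpiSC medium against 2i and against FCS in all alternatives run, and 4 to 7 were called higher in 2i than in FCS, with 5 in every fit that left out 1 library. With the replicate block for knockout comparisons, the members called were 1 each for Bod1L in FCS, for Bod1L in EpiSC medium and for its average, 2 for Setd1a in 2i, FCS and EpiSC medium and 3 on average, 1 for its effect differing between media, 1 for Mll2 in 2i and EpiSC medium and 2 on average, and 2 for the effect differing between lines. With a block of line and number, 1, 2 and 1 members were called in 2i (Setd1a against Bod1L, Setd1a against Mll2, Mll2 against Bod1L) and 1 in FCS for each comparison with Mll2. Equal numbers are not known to pair samples across media or lines, so that block was run only as an alternative. It left the counts between media at 5, 10 and 10. Over all genes, the number called moved by over 1.5 times in 12 of 12 knockout comparisons with the block, in 20 of 33 with no filter and in 17 of 28 with DESeq2.

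With no filter on low counts, members called were 1 for the Bod1L average, 1 for Setd1a in 2i, 2 on average and 1 differing between media, 1 for Mll2 in 2i and EpiSC medium, 2 on average and 1 differing between media, 3 differing between lines, 10 for wild-type lines differing, 1, 1 and 2 between lines in 2i, 2, 4 and 6 in FCS, 3 for Mll2 against Bod1L in EpiSC medium, and 2 for the 2i to FCS difference between lines. DESeq2 called 1 for Setd1a in 2i, 2 on average, 1 for the Mll2 average, and 1, 1 and 3 for Mll2 against Bod1L in 2i, FCS and EpiSC medium, where limma-voom called 1, 1 and 0. RLE size factors gave 0 for the Setd1a average and 0 for Mll2 against Bod1L in EpiSC medium, and the Setd1a libraries alone gave 2 for the Setd1a average. The cause was not tested.

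With 1 library left out, ranges of members called were 0 to 1 for the Setd1a average, 0 to 1 for Mll2 in 2i, 5 to 8 for lines differing, 6 to 9 for the medium effect differing, 3 to 5 for Setd1a and 9 to 10 for Mll2 from 2i to EpiSC medium, 0 to 1 in 2i for each comparison with Mll2, and 0 to 2 for Mll2 against Bod1L in EpiSC medium. Sign changes were found for values that were not called with all libraries. For Zfp42 between 2i and FCS the value was -0.0228 with both genotypes, and from -0.40 to 0.63 with 1 library left out, being -0.40, -0.03, -0.01 and -0.13 without Mll2 2i replicate 2, Bod1L FCS replicate 1, Setd1a FCS replicate 1 and Mll2 FCS replicate 1. For Dppa3 it was -0.52 with both genotypes, -0.10 with Bod1L and Mll2 only (chosen after seeing the data) and -0.45 without Mll2 2i replicate 2 to 0.51 without replicate 1. Klf5 in Setd1a against Bod1L EpiSC cells was 1.12 without Bod1L replicate 2 and -1.16 without replicate 1. Knockout values ranged from -1.81 to 0.39 for Dppa3 in Setd1a FCS (also 0.33), from -0.14 to 0.23 for Nr0b1 in Setd1a EpiSC (also -0.09), from -1.59 to 0.86 for Zfp42 and from -1.19 to 0.16 for Klf2 in Mll2 2i, both highest without wild-type replicate 2. Without the Setd1a line, Prdm14 between 2i and FCS was 1.51 (adjusted p = 0.0585).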
